A study of Mus musculus with 2 samples.

Results

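The genes described here are 9 genes grouped as feedback inhibitors of the NF-kB, MAPK and STAT pathways, with growth-arrest and early response genes among them: *Nfkbia*, *Nfkbiz*, *Tnfaip3*, *Zfp36*, *Dusp1*, *Socs3*, *Btg2*, *Ier2* and *Gadd45b*. They were taken by name, as a fixed list, from the 54838 genes of the count tables, and all 9 were found in both tables. They were followed in resident macrophages of the mouse sciatic nerve (SN), a nerve of the peripheral nervous system (PNS). CD64+ CD45int cells were sorted from pooled SNs of 19 male Flt3-Cre LSL-YFP fl/fl mice aged 10 to 12 weeks, and YFP− and YFP+ macrophages were made into 1 droplet library each. In these mice Cre acts in hematopoietic progenitors that express Flt3, so YFP marks the progeny of those progenitors, whereas the study takes YFP− macrophages as embryonic in origin. All mice carried the same alleles, none was treated, and both libraries come from enzymatically digested nerves. The comparison asks whether origin goes with a difference in these genes, and the cells within each library show which other genes they go with. With 1 library for each group no test of the groups was possible, so all intervals below are 95% intervals that cover counting error only.

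NF-kB, the MAP kinases and the STAT factors carry signals from cytokine and pattern recognition receptors to the nucleus, and each of them switches on genes whose products dampen the same signal. These inhibitors are mostly immediate early genes, with short-lived transcripts that appear soon after a stimulus and are lost soon after it ends. In macrophages A20, tristetraprolin and MKP-1, the products of *Tnfaip3*, *Zfp36* and *Dusp1*, limit the output of cytokines such as TNF, whereas the product of *Nfkbiz* is also needed to induce some NF-kB targets, *Il6* among them. Many of these genes also respond to stress.

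The YFP− library held 1045 cells (barcodes with at least 500 UMIs and 200 genes) with a median of 2233 UMIs, and the YFP+ library 4053 cells with a median of 1484 UMIs. Unique molecular identifiers (UMIs) count captured RNA molecules, and levels are given as counts scaled to 1000000 UMIs of all cells of a library (CPM). The kit counts the 3′ ends of transcripts, so levels were not divided by transcript length. The 11 macrophage markers, none of them at 0, summed to 32168 CPM in YFP− and to 32696 CPM in YFP+ cells, while the 3 neutrophil markers were at 0 in both. Markers of mural cells of blood vessels summed to 8.68 CPM in YFP− and to 112 CPM in YFP+ cells, and their part in the results was not tested. The libraries shared 7 cell barcodes of 5098 cells. RNA in barcodes with 10 to 100 UMIs, called free RNA below, was used as the background of each library.

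The start sites of 7 members were found in RefSeq (GRCm38.p6), and the 250 bases before each start were searched on both strands for 5 motifs of the factors at the head of these pathways. Of 32851 promoters in the same table, 7.25% held the NF-kB motif kappa-B, 7.02% the STAT motif TTCNNNGAA, 1.55% the cAMP response element TGACGTCA, 4.46% the AP-1 motif and 1.47% the CArG box. The kappa-B, CArG box and cAMP response element matches are printed below, with the STAT match of *Socs3*. Each has 10 bases on each side where the window holds them. The capitals mark the match, all are written 5′ to 3′ on the strand of the gene, and the number of the first base is counted back from the start site.
*Nfkbia*, kappa-B at −29, chr12:55492657-55492686, minus strand: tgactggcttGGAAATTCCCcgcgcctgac
*Tnfaip3*, kappa-B at −125, chr10:19015516-19015545, minus strand: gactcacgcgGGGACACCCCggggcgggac
*Tnfaip3*, kappa-B at −12, chr10:19015411-19015432, minus strand: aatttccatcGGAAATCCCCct
*Zfp36*, CArG box at −58, chr7:28379267-28379296, minus strand: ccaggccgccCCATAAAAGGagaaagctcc
*Dusp1*, cAMP response element at −143, chr17:26508598-26508625, minus strand: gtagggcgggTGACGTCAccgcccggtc
*Btg2*, cAMP response element at −166, chr1:134079304-134079331, minus strand: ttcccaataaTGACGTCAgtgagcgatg
*Socs3*, STAT motif at −154, chr11:117969502-117969530, minus strand: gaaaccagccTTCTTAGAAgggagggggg

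Thus the only kappa-B matches in these windows lay before the NF-kB inhibitors *Nfkbia* and *Tnfaip3*, and *Socs3*, an inhibitor of STAT signaling, had a STAT match. *Zfp36* also had a STAT match and *Tnfaip3* an AP-1 match, and no searched motif was found before *Gadd45b*. A match is a run of letters and was not measured as a binding site. *Nfkbiz* and *Ier2* were not in the promoter table.

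All 9 members were detected in both libraries, some at high and some at low levels. *Dusp1*, *Ier2*, *Zfp36*, *Nfkbia*, *Btg2* and *Nfkbiz* had more than 150 CPM in each library, and *Socs3*, *Tnfaip3* and *Gadd45b* had fewer than 62 CPM. Between YFP− and YFP+ macrophages the levels were close. *Gadd45b* alone was at least 1.5-fold higher in the YFP+ library, so 1 of 9 members passed that fold, while 1.54% of the 5531 genes with a mean level of at least 20 CPM did. That call rested on 30 UMIs in the YFP− library, and with 10% free RNA taken off the log2 ratio of *Gadd45b* was 0.58, just under 1.5-fold. No member was 1.5-fold lower in the YFP+ library, against 5.77% of genes. *Gadd45b* itself and *Tnfaip3* had a mean level under 20 CPM, so 7 of 9 members belong to those 5531 genes.

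Among the NF-kB inhibitors, *Nfkbia* (ENSMUSG00000021025, chr12:55489410-55492647) encodes IκBα, which holds NF-kB in the cytoplasm. YFP− cells had 296 CPM of it (interval, 274 to 318) and YFP+ cells 410.2 CPM (395 to 426), which gives a log2 ratio, taken as YFP+ over YFP−, of 0.47 (0.35 to 0.59). *Nfkbiz* (ENSMUSG00000035356, chr16:55811375-55838899) encodes the nuclear protein IκBζ, which acts on a subset of NF-kB targets. It stood at 157 CPM (141 to 173) in YFP− cells and at 209 CPM (198 to 220.0) in YFP+ cells, with a log2 ratio of 0.41 (0.25 to 0.58). *Tnfaip3* (ENSMUSG00000019850, chr10:19000910-19015657) encodes A20, a ubiquitin-editing enzyme that stops signaling upstream of NF-kB. It was rare, with 16.5 CPM (40 UMIs) among YFP− cells and 20.2 CPM (136 UMIs) among YFP+ cells, and its log2 ratio of 0.27 had an interval that held 0 (−0.22 to 0.78). The intervals of *Nfkbia* and *Nfkbiz* thus did not overlap between the libraries, and those of *Tnfaip3*, on its few UMIs, did. Those of *Dusp1*, *Zfp36*, *Socs3* and *Gadd45b* did not overlap either, so this does not mark the NF-kB inhibitors. How many of all genes had separate intervals of their levels was not counted.

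*Dusp1* (ENSMUSG00000024190, chr17:26505590-26562128) encodes the phosphatase MKP-1, which inactivates p38 and JNK, and was the most abundant member. YFP− cells had 1088 CPM (1047 to 1131) and YFP+ cells 1214 CPM (1188 to 1241), with a log2 ratio of 0.16 (0.09 to 0.22). The annotated span of *Dusp1* overlaps genes on both strands, among them *Ergic1*, and whether counting used the strand is not given in the sources used here. *Zfp36* (ENSMUSG00000044786, chr7:28376784-28380253) encodes tristetraprolin, which binds AU-rich elements of cytokine mRNAs and leads to their decay. Its level was 337 CPM (314 to 361) in YFP− cells compared with 396 CPM (381 to 412) in YFP+ cells, a log2 ratio of 0.23 (0.12 to 0.35), and it overlaps *Gm44710* on the opposite strand. *Socs3* (ENSMUSG00000053113, chr11:117966079-117970047) encodes an inhibitor of JAK kinases bound to the IL-6 receptor family. YFP− cells held *Socs3* at 44.3 CPM (36.3 to 53.5) and YFP+ cells at 61.2 CPM (55.4 to 67.4), a log2 ratio of 0.46 (0.16 to 0.77).

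The remaining members are growth-arrest and early response genes. *Btg2* (ENSMUSG00000020423, chr1:134075170-134079120) encodes an antiproliferative protein that recruits the deadenylase complex, and its 318 CPM (296 to 342) in YFP− cells and 314 CPM (301 to 328) in YFP+ cells gave a log2 ratio of −0.02 (−0.14 to 0.10). *Ier2* (ENSMUSG00000053560, chr8:84661331-84662852), an immediate early gene of a nuclear protein, had 583 CPM (553 to 614) in YFP− cells beside 597 CPM (578 to 615) in YFP+ cells, a log2 ratio of 0.03 (−0.05 to 0.12). The counting intervals of *Btg2* and *Ier2* thus lay between −0.14 and 0.12, but they do not cover the spread between cells or mice. *Gadd45b* (ENSMUSG00000015312, chr10:80930073-80932204), which encodes a stress protein that acts on MAP kinase kinases, was the rarest in the YFP− library. YFP− cells had 12.4 CPM (30 UMIs) and YFP+ cells 21.3 CPM (144 UMIs), a log2 ratio of 0.74 (0.20 to 1.30).

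**Figure D1:**
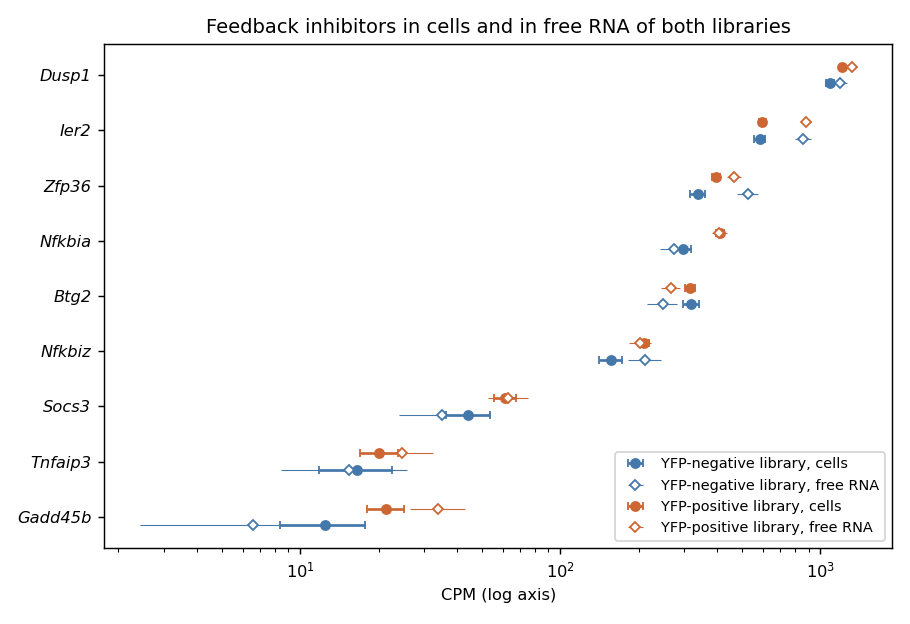
Level of each of the 9 genes in CPM (log axis) in the cells (filled circles) and in the free RNA (open diamonds) of the YFP-negative (blue) and YFP-positive (orange) library, with 95% counting intervals. Levels in cells run from 12.4 and 21.3 CPM for *Gadd45b*, which differs most between the libraries, to 1088 and 1214 CPM for *Dusp1*, and free RNA holds the same genes, with *Gadd45b* farthest apart at 6.60 and 33.9 CPM.

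Across the list, 8 of 9 log2 ratios were above 0, as were 49.5% of genes, and the interval of 6 members lay above 0, as did that of 11.6% of genes. The median log2 ratio was 0.27 for the 9 members, 0.23 for the 7 of them over 20 CPM, and −0.00 for all genes over 20 CPM. Neighbors in the order of levels were not always separate: in YFP− cells the interval of *Btg2* overlapped with those of *Zfp36* and *Nfkbia*, in YFP+ cells those of *Nfkbia* and *Zfp36* overlapped, and in both libraries those of *Tnfaip3* and *Gadd45b* did. Free RNA moved in the same direction for some members. *Gadd45b* had 6.60 CPM in YFP− free RNA but 33.9 CPM in YFP+ free RNA, and *Nfkbia* had 274 and 408 CPM. For *Zfp36*, in contrast, YFP− free RNA held 525 CPM and YFP+ free RNA 465 CPM, opposite to the cells. The part of free RNA in the difference of the cells was not tested.

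Because YFP− cells were sequenced more deeply, the ratios were also taken among cells of like UMI totals. For *Nfkbia* the log2 ratio was 0.996 (0.35 to 1.72) in cells with fewer than 1000 UMIs, 0.97 (0.63 to 1.34) in cells with 1000 or more but fewer than 2000 UMIs, and 0.52 (0.38 to 0.65) in cells with 2000 UMIs or more. The ratio of *Nfkbia* was thus above 0 in each range of depth, and in the middle range its interval lay above that over all cells (0.35 to 0.59). *Dusp1* behaved otherwise, with log2 ratios of −0.11, −0.00 and 0.28 in the same order, and only the interval of the deepest cells (0.21 to 0.36) was without 0. For *Nfkbiz* the 3 ratios were 0.44, 0.35 and 0.55, again with only the last interval above 0. The same held for *Zfp36*, at 0.26, 0.19 and 0.34. *Socs3* had 1.89 (0.03 to 4.49, on 2 YFP− UMIs), −0.01 (−0.68 to 0.72) and 0.58 (0.23 to 0.95). *Gadd45b* had 1 and 0 YFP− UMIs in the shallower ranges, and 0.67 (0.09 to 1.29) in the deepest cells.

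The pathways around the members showed few differences between the libraries. Of the other genes of NF-kB signaling, 10 of 21 had at least 20 CPM and none of them differed by 1.5-fold, with a median log2 ratio of 0.09. The most abundant were *Ikbkb*, the kinase that marks IκB for decay, at 93.5 CPM (YFP−) and 105 CPM (YFP+), the subunit *Rel* at 43.8 and 61.4 CPM, and *Nfkb1* at 44.7 and 49.4 CPM. Of the genes under 20 CPM, *Tnip3*, which encodes a binding partner of A20 and was picked after its values had been seen, had 4.96 CPM (12 UMIs) in YFP− cells against 19.0 CPM (128 UMIs) in YFP+ cells, a log2 ratio of 1.74 (0.997 to 2.53). In the MAPK list 11 of 26 genes reached 20 CPM, none differed by 1.5-fold, and the median was −0.09. *Dusp6*, a phosphatase of ERK, led it with 237 and 252 CPM, before *Spred1*, an inhibitor of Ras signaling, with 115 and 108 CPM, and *Dusp3*, with 91.8 and 109 CPM. In the JAK-STAT list none of 12 genes over 20 CPM (of 24) differed by 1.5-fold and the median was 0.01. Its leading genes were the receptor chain *Il10rb* at 220.4 and 222 CPM, the kinase *Jak1* at 109.6 and 115 CPM, and the phosphatase *Ptpn6* at 88.9 and 101 CPM.

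Of the 4 pathway lists, that of mRNA decay and growth arrest had the highest summed level, with 16 of 22 genes over 20 CPM, none past 1.5-fold and a median of 0.12. Relatives of *Zfp36* led it, *Zfp36l1* at 630.3 and 643 CPM and *Zfp36l2* at 484 and 437 CPM, followed by *Btg1*, a relative of *Btg2*, at 285 and 301 CPM. The relatives of *Gadd45b* were under 20 CPM on average and went opposite ways, and they were picked after their values had been seen. *Gadd45g* was at 7.03 CPM in YFP− cells against 27.6 CPM in YFP+ cells, a log2 ratio of 1.83 (1.18 to 2.52), and *Gadd45a* had 9.10 and 2.52 CPM, a log2 ratio of −1.52 (−2.28 to −0.72).

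Levels also varied from cell to cell. To compare cells at 1 depth, each was thinned to 500 UMIs drawn at random. *Dusp1* then had a UMI in 34.4% of YFP− and 35.2% of YFP+ cells, *Ier2* in 20.8% and 21.5%, *Zfp36* in 13.3% and 15.2%, and *Btg2* in 12.0% and 12.4%. *Nfkbia* was seen in 10.1% (8.38 to 12.1) of YFP− and 13.4% (12.4 to 14.5) of YFP+ cells, the only member whose intervals did not overlap. How many of all genes had separate intervals was not counted, so this does not set *Nfkbia* apart from other genes. *Nfkbiz* was seen in 7.08% and 8.27%, *Socs3* in 2.01% and 2.34%, *Tnfaip3* in 0.77% and 1.31%, and *Gadd45b* in 0.29% and 0.64%. Without thinning the shares were 63.2% and 59.3% for *Dusp1* and 27.8% and 30.6% for *Nfkbia*. Draws of 500 UMIs from free RNA alone would give a UMI of *Dusp1* in 44.8% and 48.5% of barcodes and of *Nfkbia* in 12.8% and 18.5%, so shares of this size are not above background and do not tell which cells expressed a gene. No other cell type was called in these libraries that could serve as a second background.

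The UMIs of the members were spread over the cells unevenly to differing degrees, and the order of the members depended on the measure. The variance of the thinned UMIs divided by their mean (Fano factor, 1 for a Poisson spread) was 1.84 in YFP− and 1.73 in YFP+ cells for *Nfkbia* and 1.86 and 1.90 for *Dusp1*, while the median of 2447 genes was 1.05 and 1.02. *Ier2* had 1.60 and 1.41 and *Socs3* 1.31 and 1.47, whereas *Nfkbiz* had only 1.14 and 1.22. By the share of thinned UMIs in the 5% of cells with the most, *Dusp1* was the lowest member, at 33.9% and 33.1%. *Nfkbia* had 62.2% and 53.6%, and *Nfkbiz* 73.2% and 66.2%. Neither measure was adjusted for the level of the gene. *Tnfaip3* had 1.59 and 1.06, and *Gadd45b* 0.998, on 3 thinned UMIs, and 1.38. Single cells reached 33 and 34 UMIs of *Nfkbia* before thinning, and 34 and 62 UMIs of *Dusp1*.

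Members tended to meet in the same cells. After thinning, 41.3% of YFP− and 38.5% of YFP+ cells had no UMI of any member, 10.0% and 12.1% had UMIs of at least 3 members, and 1.15% and 1.78% of at least 5. No cell had more than 7 of the 9. Over cells, the 36 pairs of members had a median Pearson correlation of 0.10 in the YFP− (1045 cells) and 0.11 in the YFP+ library (4053 cells), against −0.01 and −0.00 between members and the 2441 other genes over 50 CPM. The highest was that of *Dusp1* and *Ier2*, at 0.23 and 0.21. These values are low. Most counts are 0 and the cells of a library share its free RNA, and the part of either in the correlations was not tested.

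**Figure D2:**
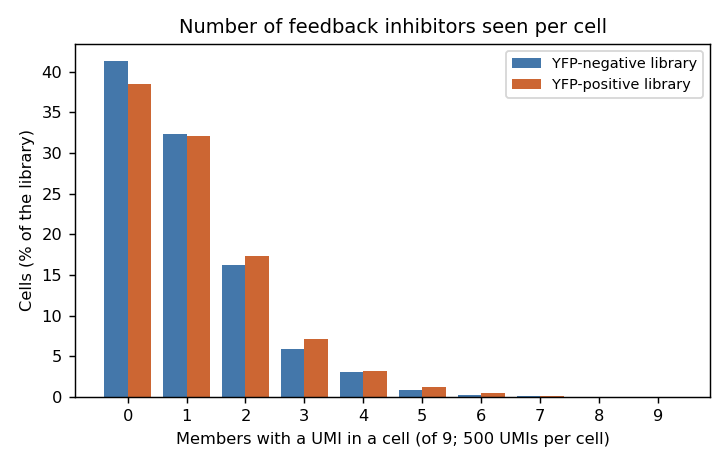
Share of the cells of the YFP-negative (blue) and YFP-positive (orange) library, in percent, by the number of members with a UMI after each cell was thinned to 500 UMIs. Both libraries have the same shape, with 41.3% and 38.5% of cells at 0 and few cells beyond 4 members.

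Cells with a thinned UMI of *Nfkbia* show which members went with it. In the YFP− library *Tnfaip3* had 66.5 CPM in the 106 cells with *Nfkbia* and 10.6 CPM in the 939 cells without it, and in the YFP+ library 64.7 CPM in 545 cells and 12.9 CPM in 3508 cells. The log2 ratios were 2.54 (1.58 to 3.45) and 2.24 (1.74 to 2.72), the highest among the members in each library, with intervals that overlapped those of *Gadd45b*, *Socs3* and *Nfkbiz* in both. *Gadd45b* came next, at 1.97 and 2.02, followed by *Socs3* at 1.69 and 1.85 and *Nfkbiz* at 1.55 and 1.72. *Ier2* had the lowest ratios, 0.75 (0.54 to 0.95) and 1.05 (0.94 to 1.15).

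The genes of the whole table most like each member over cells, by the mean of its correlation in both libraries among genes over 50 CPM, were mostly other early genes. For *Nfkbia* they were the neutrophil-attracting chemokine *Cxcl2* (0.27), the heat shock gene *Hspa1a* (0.26) and the AP-1 subunit *Junb* (0.26), and for *Nfkbiz* the same genes in another order, *Junb* (0.21), *Hspa1a* (0.20) and *Cxcl2* (0.19). *Tnfaip3* was most like *Nfkbia* (0.13), before *Cd2ap* and *Cnot3*. The other members had AP-1 genes among their partners: *Dusp1* with *Fos* (0.39), *Jun* and *Jund*, *Ier2* with *Fos* (0.27), *Junb* and *Jun*, *Zfp36* with *Fos* (0.24), *Junb* and *Dusp1*, *Btg2* with *Fos* (0.23), *Hspa1a* and *Jun*, *Socs3* with *Hspa1a* (0.22), *Atf3* and *Jun*, and *Gadd45b* with *Hspa1b* and *Junb* (0.09). *Cxcl2* thus appeared beside the IκB genes and in the top 3 of no other member.

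To see the size of these relations, cells of each library were split by the thinned UMIs of a gene list that holds no member, and the members were summed in the cells on each side. The first list was that of AP-1, the factor made of Fos and Jun proteins, led by *Fos*, *Jun* and *Jund*. All 9 members were at least 1.5-fold higher in cells with 2 or more AP-1 UMIs (428 YFP− and 1724 YFP+ cells) than in cells with none (367 and 1441 cells), a fold that 5.39% of genes passed in the YFP− and 2.15% in the YFP+ library. The median log2 ratio of the members was 1.96 and 2.09, and that of all genes −0.02 and −0.03. Cells high for AP-1 had medians of 2562 and 1615 UMIs and cells low for it 2108 and 1422, and levels are CPM in both.

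*Dusp1* had 391 CPM in AP-1-low and 1862 CPM in AP-1-high YFP− cells, and 450.1 and 2022 CPM in YFP+ cells, log2 ratios of 2.25 (2.08 to 2.43) and 2.17 (2.07 to 2.26). *Socs3* had higher ratios, without overlap of the intervals in the YFP+ library, from 12.6 to 85.4 CPM in YFP− and from 13.1 to 118 CPM in YFP+ cells, with log2 ratios of 2.67 (1.77 to 3.67) and 3.08 (2.57 to 3.62). *Nfkbia* had ratios of 1.80 (1.51 to 2.11) and 1.90 (1.75 to 2.06), with levels of 140 CPM and 490.2 CPM in YFP− cells and 179 and 672 CPM in YFP+ cells. In AP-1-low cells *Tnfaip3* was at 3.77 CPM (3 UMIs) in the YFP− and 7.43 CPM (17 UMIs) in the YFP+ library, and *Gadd45b* at 5.03 CPM (4 UMIs) in the YFP− library. Hence every member followed AP-1 genes in both libraries, and the lowest of the 18 log2 ratios was 1.80.

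Genes of the Egr, Nr4a and Klf families, led by *Egr1*, *Klf6* and *Klf2*, are early genes of growth factor and stress signals and gave a smaller difference. All 9 members were again at least 1.5-fold higher in the cells with a UMI of the list, as were 3.69% of genes in the YFP− and 1.16% in the YFP+ library, and the median ratio was 1.16 and 1.22. Heat shock genes, the chaperones led by *Hspa8*, *Hspa1a* and *Hsp90ab1*, went with 6 of 9 members in the YFP− library (3.8% of genes) and 8 of 9 in the YFP+ library (1.29% of genes). Heat-shock-high cells were those with a UMI of the list, 614 in the YFP− and 2597 in the YFP+ library, and heat-shock-low cells had none. *Nfkbia* had 159 CPM in heat-shock-low and 381 CPM in heat-shock-high YFP− cells and 239 and 496 CPM in YFP+ cells, log2 ratios of 1.26 and 1.05. For *Dusp1* the ratios were 0.43 (0.31 to 0.55) and 0.62 (0.55 to 0.70), on either side of the 1.5-fold limit. *Gadd45b* had no UMI in the heat-shock-low cells of the YFP− library and 30 UMIs in the high cells, a ratio of at least 5.01-fold with 3 UMIs put in place of 0.

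The inflammatory cytokine list, with *Cxcl2*, *Ccl3* and *Ccl4* as its most abundant genes, holds products of the same pathways, some of which members such as *Zfp36* and *Tnfaip3* are known to restrain. It was seen in 148 of 1045 YFP− and 675 of 4053 YFP+ cells after thinning. All 9 members were at least 1.5-fold higher in these cells in both libraries, as were 5.68% of genes in the YFP− and 2.04% in the YFP+ library, with median ratios of 1.41 and 1.44. *Nfkbia* had 224 CPM without and 681 CPM with a cytokine UMI in YFP− cells, and 275 and 1005 CPM in YFP+ cells. *Nfkbiz* had 124 and 331 CPM in YFP− and 146 and 487 CPM in YFP+ cells. Their log2 ratios in YFP+ cells, 1.86 (1.75 to 1.97) and 1.73 (1.58 to 1.89), were above those of *Dusp1* at 1.18 (1.12 to 1.25), *Zfp36* at 1.19 (1.07 to 1.30) and *Ier2* at 0.88 (0.78 to 0.97), with intervals that did not overlap. In YFP− cells *Nfkbia* at 1.60 (1.38 to 1.82) was likewise above *Dusp1* at 1.01 (0.89 to 1.14) and *Ier2* at 0.75 (0.57 to 0.93). *Nfkbiz* there, at 1.41 (1.09 to 1.72), overlapped *Dusp1*. The rarer members were not below the IκB genes. *Gadd45b* was at 2.81 (1.76 to 3.84) in YFP− and 1.83 (1.35 to 2.30) in YFP+ cells, and the intervals of *Socs3* and *Tnfaip3* overlapped those of *Nfkbia* in both libraries. The order of the members under the cytokine split was therefore not that under the AP-1 split, where *Dusp1* was above *Nfkbia* in YFP+ cells (2.07 to 2.26 against 1.75 to 2.06).

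**Figure D3:**
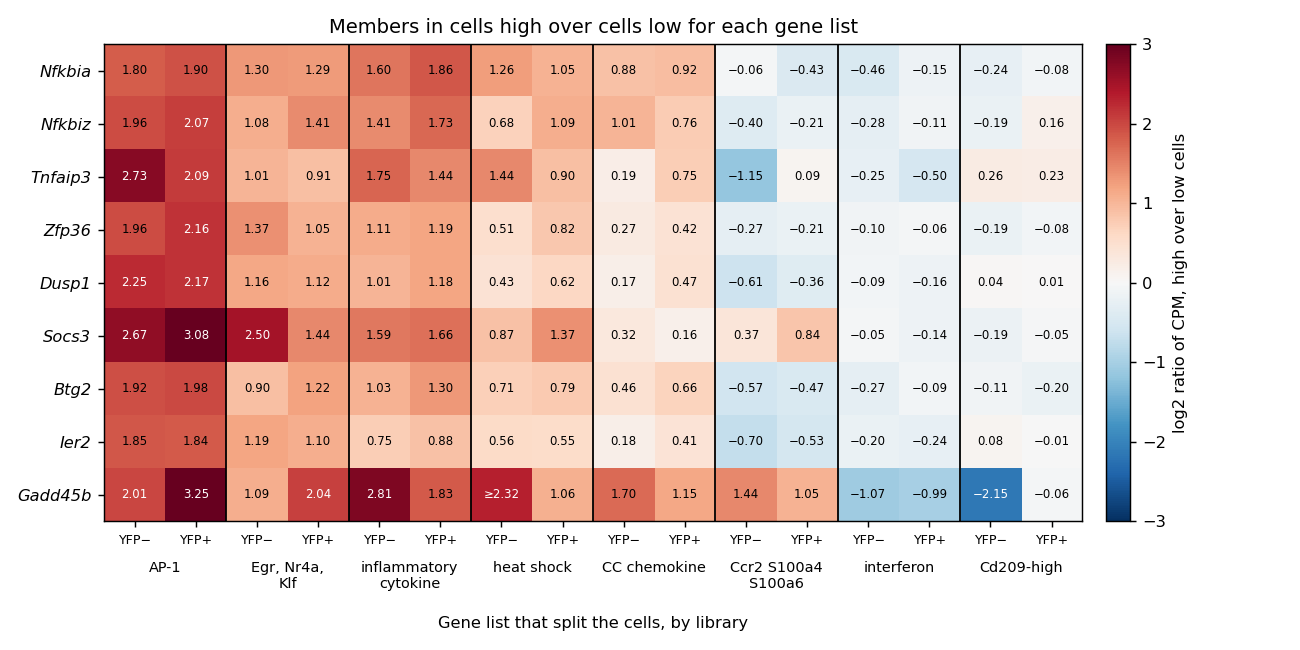
Log2 ratio of the level of each member (rows) in cells high over cells low for 8 gene lists (column pairs, YFP-negative on the left and YFP-positive on the right), on a color scale from −3 (blue) to 3 (red). A value after ≥ is a bound. The AP-1, Egr and cytokine columns are red for all members in both libraries, and the interferon and Cd209-high columns are pale for all but *Gadd45b*.

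The CC chemokines *Ccl12*, *Ccl2* and *Ccl7*, which attract monocytes, went with fewer members. In the YFP− library 3 of 9 were at least 1.5-fold higher (5.45% of genes), namely *Nfkbia* at 0.88, *Nfkbiz* at 1.01 and *Gadd45b* at 1.70 on the log2 scale. In the YFP+ library these 3 and *Tnfaip3* and *Btg2* were (5 of 9, and 1.65% of genes), with 0.92 for *Nfkbia* and 0.76 for *Nfkbiz*. When the cells were split after thinning to 1000 UMIs, 1 member in the YFP− and 3 in the YFP+ library passed 1.5-fold, and *Nfkbia* in YFP− cells was at 0.22. *Dusp1* (0.17 and 0.47), *Zfp36* (0.27 and 0.42) and *Ier2* (0.18 and 0.41) stayed under 1.5-fold in both libraries.

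*Ccr2*, *S100a4* and *S100a6*, genes of macrophages that come from monocytes, were each at least 1.5-fold higher in the YFP+ library and most members were lower in the cells with a UMI of them. In YFP+ cells with a UMI of this list (962 cells) *Socs3* had 92.3 CPM and *Gadd45b* 35.6 CPM, compared with 51.1 and 16.7 CPM in the 3091 cells without one, log2 ratios of 0.84 (0.55 to 1.13) and 1.05 (0.56 to 1.52). They were 2 of 9 members past 1.5-fold higher (2.13% of genes), and none was past 1.5-fold lower (2.5% of genes). *Ier2* (−0.53), *Btg2* (−0.47), *Nfkbia* (−0.43), *Dusp1* (−0.36), *Zfp36* (−0.21) and *Nfkbiz* (−0.21) had intervals under 0 in the YFP+ library. In the YFP− library only 113 cells had a UMI of the list. There *Gadd45b* (8 UMIs) was 1 of 9 past 1.5-fold higher (8.9% of genes), and *Tnfaip3* (2 UMIs, −1.15, interval −3.36 to 0.66), *Dusp1* (−0.61) and *Ier2* (−0.70) were 3 of 9 past 1.5-fold lower (14.1% of genes). These shares lie nearer to those of all genes, and values changed with the draw of UMIs in both libraries. In the YFP+ library 1 member, instead of 2, passed 1.5-fold higher with another seed or with thinning to 1000 UMIs. *Gadd45b* there went as low as 0.47, under 1.5-fold.

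By their median, the members did not go with the remaining lists in this way. For interferon-response genes, led by *Ifi27l2a*, *Ifi204* and *Xaf1*, the median log2 ratio of the members was −0.25 in the YFP− and −0.15 in the YFP+ library, and for the list of *Cd209*-high macrophages, led by *Retnla*, *Folr2* and *Lyve1*, −0.19 and −0.05. Under the main settings only *Gadd45b* was 1.5-fold lower in cells with a UMI of the interferon list (272 YFP− and 1116 YFP+ cells). Its log2 ratio was −1.07 (−2.61 to 0.32) in YFP− and −0.99 (−1.64 to −0.37) in YFP+ cells. Of 5526 genes, 292 and 33 were 1.5-fold lower. In the 496 YFP− cells with a UMI of the *Cd209*-high list, too, only *Gadd45b* was 1.5-fold lower, at −2.15 on 4 UMIs, as were 226 of 5522 genes. Such cells need not hold a *Cd209* UMI. *Retnla* gave 618 of the 2034 CPM of this list in YFP− and 1043 of 2040 CPM in YFP+ cells. *Cd209a*, its most abundant *Cd209* gene, had 58.7 and 47.7 CPM. Both YFP− values of *Gadd45b* turned above 0 with another draw of UMIs. Other members passed 1.5-fold lower under some alternative settings. For the interferon list *Nfkbia* went as low as −1.10 in YFP− cells. There *Tnfaip3* went as low as −1.02 (YFP−) and −0.94 (YFP+), and *Socs3* as low as −0.79 (YFP−) and −0.70 (YFP+). For the *Cd209*-high list *Socs3* went as low as −0.77 in YFP− cells. For cycling genes, of which *Stmn1* and *Top2a* were the most abundant, the median was −0.36 (8 members with a value) and −0.11. Only *Tnfaip3* was 1.5-fold higher in cells with a UMI of the cycling list, in the YFP− library (50 cells). Its log2 ratio was 0.66 (−1.15 to 2.09) on 4 UMIs, and 838 of 5529 genes were 1.5-fold higher there.

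Since AP-1 genes and cytokines were high in overlapping cells, both were set against each other. Cells high for AP-1 with a cytokine UMI made up 9.95% (104 cells) of the YFP− and 11.4% (461 cells) of the YFP+ library, cells high for AP-1 without one 31.0% and 31.2%, and cells low for AP-1 without one 32.9% and 32.6%. Only 23 YFP− and 118 YFP+ cells were low for AP-1 with a cytokine UMI. The make-up of the libraries by these groups was thus similar, with overlapping intervals.

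*Nfkbia* in YFP+ cells had 173 CPM in cells low for AP-1 without a cytokine UMI, 245 CPM in cells low for AP-1 with one, 418 CPM in cells high for AP-1 without one, and 1292 CPM (1218 to 1369) in cells with both. In YFP− cells the same groups had 136, 183, 376 and 825 CPM (721 to 939). *Nfkbiz* followed the same order, with 76.9, 138, 241 and 613 CPM in YFP+ cells and 63.5, 73.0, 205 and 390.4 CPM in YFP− cells. Both genes were thus highest where AP-1 and cytokine genes met, in either library, and by level so was every other member. How many of all genes were highest in these cells was not counted. In the YFP− library, however, the intervals of *Socs3*, *Tnfaip3*, *Gadd45b* and *Ier2* in these cells overlapped that of another group. AP-1-low cells with a cytokine UMI there held 2 UMIs of *Socs3*, 2 of *Gadd45b* and 0 of *Tnfaip3*.

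Within AP-1-high cells, a cytokine UMI went with a log2 ratio for *Nfkbia* of 1.13 (0.88 to 1.38) in YFP− and 1.63 (1.4998 to 1.75) in YFP+ cells, and for *Nfkbiz* of 0.92 (0.56 to 1.28) and 1.34 (1.17 to 1.52). *Tnfaip3* (1.42 and 1.12) and *Socs3* (0.90 and 1.06) had ratios of similar size on fewer UMIs, and *Gadd45b* had 2.05 (0.85 to 3.27) in YFP− cells, the largest there, on 15 and 10 UMIs, and 1.30 (0.79 to 1.81) in YFP+ cells. The ratios were lower for *Zfp36* (0.68 and 0.76), *Btg2* (0.55 and 0.88), *Dusp1* (0.46 and 0.73) and *Ier2* (0.26, interval 0.06 to 0.46, and 0.47, interval 0.36 to 0.58). The intervals of *Nfkbia* and *Ier2* therefore did not overlap in either library. In AP-1-low cells the ratios rested on few UMIs, with *Nfkbiz* at 0.83 (0.19 to 1.42) and *Nfkbia* at 0.50 (0.03 to 0.93) in the YFP+ library and *Dusp1* at 0.68 (0.11 to 1.20) and *Ier2* at 0.75 (0.06 to 1.37) in the YFP− library. The other intervals of this comparison held 0, where the UMIs allowed one, and *Ier2* was thus not the lowest member in AP-1-low YFP− cells. Conversely, among cells without a cytokine UMI, AP-1-high cells had more of all 9 members than AP-1-low cells. The log2 ratios were 1.46 to 2.58 in the YFP− and 1.27 to 2.71 in the YFP+ library. The interval of *Gadd45b* in the YFP− library held 0 (−0.02 to 3.55). The share of all genes higher in this comparison was not taken, so the count is no result about the members.

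**Figure D4:**
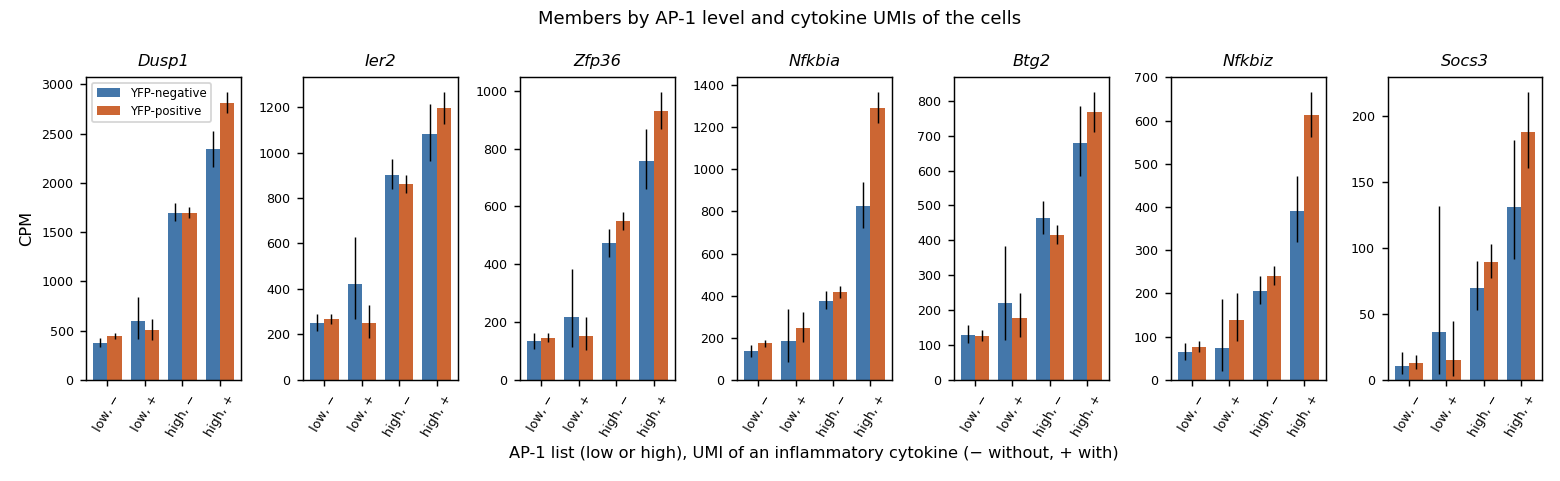
Levels in CPM of 7 members in cells grouped by the AP-1 list (low or high) and by a UMI of an inflammatory cytokine (− without, + with), for the YFP-negative (blue) and YFP-positive (orange) library, with 95% counting intervals. All 7 are highest in the cells high for both, with *Nfkbia* and *Nfkbiz* at 1292 and 613 in the YFP-positive library. In the YFP-negative library the intervals of *Socs3* and *Ier2* in those cells overlap that of another group. *Dusp1* and *Ier2* are already high in AP-1-high cells without a cytokine. *Tnfaip3* and *Gadd45b* are not shown.

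The difference between the libraries was also placed in these groups. In AP-1-high cells with a cytokine UMI the log2 ratio of YFP+ over YFP− was 0.65 (0.44 to 0.86) for *Nfkbia* and 0.65 (0.35 to 0.96) for *Nfkbiz*, and in AP-1-high cells without one it was 0.15 (−0.04 to 0.34) and 0.23 (−0.03 to 0.49). For *Nfkbia* these intervals did not overlap, and for *Nfkbiz* they did. *Dusp1* had ratios of 0.26 (0.14 to 0.39) and −0.00 (−0.09 to 0.09) in the same groups, while the interval of *Ier2* held 0 in both. Intervals above 0 also occurred among cells without a cytokine UMI after thinning, which can include cells whose cytokine UMIs were not drawn. In AP-1-low cells of that kind the ratio was 0.34 (0.02 to 0.67) for *Nfkbia* and 0.24 (0.05 to 0.44) for *Dusp1*. The intervals of all other members held 0 in that group. Other draws of UMIs were not tried for these ratios, so where the difference lies was not settled. For *Gadd45b*, the member with the largest ratio over all cells, the log2 ratio was 1.16 (0.24 to 2.18) in AP-1-high cells without a cytokine UMI, on 10 YFP− and 63 YFP+ UMIs, and 0.41 (−0.40 to 1.31) in those with one.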

How the data were processed

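The members and all gene lists were chosen with earlier results of these data known. The deposited tables hold unnormalized UMI counts of each gene in every barcode, unfiltered, that the authors made with Cell Ranger from 10x Chromium v2 reads on GRCm38. The submitters' processing notes name Cell Ranger 3.0.2 and Seurat 2.2.0. The study's filter on mapped reads cannot be applied to UMI counts, so cells were barcodes with at least 500 UMIs and 200 genes, and doublets were kept. Of gene IDs, 99.8% matched GENCODE M21, from which positions were taken.

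Counts were summed over the cells of a library and scaled to 1000000 (CPM). Intervals are exact Poisson (levels), Clopper-Pearson (shares) and conditional binomial (log2 ratios, pseudocount of 1 CPM), at 95%, and treat UMIs as independent, so spread between cells and mice is not covered. A call is a fixed 1.5-fold. Where a side had 0 UMIs, a floor of 3 counts was used. Cells were thinned to 500 UMIs (seed 1) for shares, correlations and splits, and a list split them at the tertiles of its UMIs over both libraries. Besides the members, the text names pathway genes over 20 CPM past 1.5-fold, the 3 most abundant of each list, and the 3 most correlated partners of a member, of which 1 is not reported here. Python 3.11.15, numpy 2.4.6, scipy 1.17.1 and matplotlib 3.10.9 were used, and the intervals and thinning were tested on simulated data. Alternatives were other filters, scalings, pseudocounts, depths of thinning and seeds.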

Additional observations from a re-analysis of the deposited data

How the results depend on the processing

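No paired analysis was possible because each group has 1 library and no replicate numbers. Over the 9 alternatives for filters, scaling, pseudocount, free RNA and shared barcodes, each member's ratio between the libraries stayed within its counting interval, and 8 members kept a ratio above 0 in all 9. *Btg2* ranged from −0.05 to 0.03. With 10% free RNA taken off, 0 members passed 1.5-fold between the libraries, with *Gadd45b* just under it at a log2 ratio of 0.58 (0.74 without this step). With all genes over 1 CPM as background, 6.29% of genes were 1.5-fold higher in YFP+ cells. The AP-1, Egr and heat shock counts kept within 1.5 times of their value under all alternatives run for them. Within AP-1-low cells, 5 members in the YFP− and 1 in the YFP+ library passed 1.5-fold by cytokine, and *Ier2* had a log2 ratio of −0.10 in the YFP+ library. The share of all genes past that fold was not taken here, so these counts are no result about the members. Only 23 YFP− cells of this kind had a cytokine UMI, and the YFP− intervals of *Zfp36*, *Btg2* and *Socs3* held 0. Split after thinning to 1000 UMIs, the CC chemokine counts were 1 (YFP−) and 3 (YFP+), and the *Ccr2* list counts were 0 higher and 7 lower (YFP−) and 1 higher (YFP+). Another seed also gave 1 higher in YFP+. *Gadd45b* in YFP− cells, on at most 30 UMIs, turned to −1.27 (1000 UMIs) and −0.36 (seed) for the *Ccr2* list, 0.52 (1000 UMIs) for interferon and 0.49 (seed) for *Cd209*. The seed alone moved 47 of 160 split ratios out of their counting interval and turned 2, so those intervals understate the error. The median pair correlation was 0.15 (YFP−) and 0.17 (YFP+) at 1000 UMIs.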
